A study of Mus musculus with 6 samples.

Results

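The genes described here are the chemokines and the chemokine receptors, chosen by symbol and annotation from the deposited count table of mouse pulmonary artery smooth muscle cells (mPASMCs). Protein-coding genes with a symbol of the *Ccl*, *Cxcl*, *Cx3cl*, *Xcl*, *Ccr*, *Cxcr*, *Cx3cr*, *Xcr* or *Ackr* series were taken, which gave 68 of the 55487 genes in the table, 45 for ligands and 23 for receptors. They carry 62 distinct symbols, since *Ccl19*, *Ccl21a*, *Ccl21b* and *Ccl27a* are also annotated on unplaced sequence as near-identical copies. The mPASMCs were transfected with a control small interfering RNA (si-NC) or with an siRNA against the long noncoding RNA *Snhg18* (si-*Snhg18*), and the comparison asks how these genes differ once *Snhg18* is lowered. Each group had 3 libraries, numbered 1 to 3 in the labels. The cells were commercially obtained mouse cells grown in serum and transfected with a lipid reagent, and for the sequenced cells neither the oxygen level nor the hours since transfection are given in the sources used here. Nothing states that the numbers mark separate cultures, so the tests measure the spread between these libraries, which may be technical.

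Chemokines are small secreted or membrane-bound proteins that guide the movement of cells, mostly leukocytes, along a gradient. They act on receptors that couple to G proteins, while the atypical receptors bind chemokines and clear them without this coupling. In vessel walls, smooth muscle cells are known as a source of ligands such as *Ccl2* and *Cxcl12*, and many ligand genes respond to cytokines through the transcription factor NF-kappaB or through interferon signalling.

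Promoter sequences are shown for the ELR CXC ligands, which the libraries numbered 2 held at far lower levels than the other libraries, for *Cxcl10*, which had the highest fitted fold difference of the members, and for *Cxcl12* as an abundant ligand. RefSeq promoter windows were matched for 14 of the 20 members that could be tested, and none was matched for *Ccl2*, *Ccl7*, *Ccl5*, *Ccl11*, *Cxcl5* and *Cxcl16*. The windows hold the 250 bases before the annotated start in GRCm38.p6, 5′ to 3′ in the direction of the gene, and capitals mark matches to the kappaB motif, the site that NF-kappaB binds. They lie at chr5:90890995-90891244 on the plus strand for *Cxcl1*, chr5:90903649-90903898 on the plus strand for *Cxcl2*, chr5:90785851-90786100 on the plus strand for *Cxcl3*, chr5:92348890-92349139 on the minus strand for *Cxcl10* and chr6:117168285-117168534 on the plus strand for *Cxcl12*.
Cxcl1: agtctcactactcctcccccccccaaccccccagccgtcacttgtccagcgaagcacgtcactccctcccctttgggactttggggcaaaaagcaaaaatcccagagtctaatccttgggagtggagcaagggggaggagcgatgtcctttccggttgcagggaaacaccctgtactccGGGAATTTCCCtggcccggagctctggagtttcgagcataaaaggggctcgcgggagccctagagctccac
Cxcl2: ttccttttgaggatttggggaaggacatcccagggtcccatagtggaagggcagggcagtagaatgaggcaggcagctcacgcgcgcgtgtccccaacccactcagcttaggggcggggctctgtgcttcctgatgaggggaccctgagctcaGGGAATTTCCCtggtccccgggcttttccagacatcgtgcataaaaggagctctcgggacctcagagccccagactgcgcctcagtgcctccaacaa
Cxcl3: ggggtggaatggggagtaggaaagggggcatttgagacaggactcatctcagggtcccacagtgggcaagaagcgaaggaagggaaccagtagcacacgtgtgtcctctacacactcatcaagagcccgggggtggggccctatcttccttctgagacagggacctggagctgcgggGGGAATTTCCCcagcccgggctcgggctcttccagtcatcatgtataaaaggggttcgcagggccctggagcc
Cxcl10: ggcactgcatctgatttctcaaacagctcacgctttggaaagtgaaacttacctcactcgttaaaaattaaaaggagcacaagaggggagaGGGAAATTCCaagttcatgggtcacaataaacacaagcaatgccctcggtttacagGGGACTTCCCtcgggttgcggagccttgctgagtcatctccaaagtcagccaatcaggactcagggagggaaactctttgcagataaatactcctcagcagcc
Cxcl12: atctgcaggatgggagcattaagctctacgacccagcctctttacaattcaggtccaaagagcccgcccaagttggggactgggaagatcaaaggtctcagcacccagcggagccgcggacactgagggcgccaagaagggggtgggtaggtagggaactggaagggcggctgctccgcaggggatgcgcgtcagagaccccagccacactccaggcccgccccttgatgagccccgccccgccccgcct

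*Cxcl1*, *Cxcl2* and *Cxcl3* held the same 11 letters, GGGAATTTCCC, which ended 61, 87 and 63 bases before the start. *Cxcl10* held the kappaB matches GGGAAATTCC and GGGACTTCCC, together with the interferon response motif (ISRE, searched as GAAA repeated after any 2 letters) as GAAAGTGAAA and the AP-1 motif (TGANTCA) as TGAGTCA. The window of *Cxcl12* held none of these motifs, which says only that these letters are not in it. Searched on both strands, kappaB stood in 3.9% of the 32851 promoter windows of the genome, AP-1 in 6.75% and ISRE in 2.98%. Among the 14 matched members, kappaB stood in the windows of 5, namely *Cxcl1*, *Cxcl2*, *Cxcl3*, *Cxcl10* and *Ccl9*. The windows of *Ccr1* and *Cxcr4*, which were also lower in the libraries numbered 2, held no kappaB match. AP-1 stood in *Ccl9*, *Ccl27a* and *Cxcl10*, and ISRE in *Cxcl10* and *Cxcl14*. A match is a description of the letters and was not tested as a site of binding.

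The libraries held 18097718 to 25988746 counted reads each. *Snhg18* was measured at 23.5, 22.4 and 22.2 CPM (the reads of a gene relative to the scaled total of its library) in si-NC 1 to 3 and at 10.6, 11.2 and 9.97 CPM in si-*Snhg18* 1 to 3, so every library followed its label, and it fell by 1.10 on the log2 scale (SE 0.10, adjusted p = 0.00727). Without si-NC 1, si-NC 3 or si-*Snhg18* 3 its adjusted p was 0.0659, 0.0700 and 0.0703. The libraries numbered 2 stood apart from the others in both groups and deviated together. The match of numbers 1 and 3 was not settled. By correlation of deviations from the group means, si-NC 3 was closer to si-*Snhg18* 1 (r = 0.497) than to si-*Snhg18* 3 (r = 0.359). A fit with the library number as a block is given beside the fit without it, and its pairs follow the numbers in the labels. Without the block, 1069 of 14531 tested genes had an adjusted p under 0.05, and the count was 0 when si-NC 1, si-NC 3 or si-*Snhg18* 3 was left out. It was 158 without si-NC 2, 319 without si-*Snhg18* 1 and 3282 without si-*Snhg18* 2.

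Of the cell markers, the contractile genes were present, and *Tagln* (684 ± 6.88 against 481 ± 70.3 CPM, SD, n = 3) was lower in si-*Snhg18* by 0.51 on the log2 scale (adjusted p = 0.0427). Of 15 leukocyte markers, 9 had at most 8 reads in any library, among them *Ptprc*, and *Cd52*, *Tyrobp*, *Adgre1* and *Cd3e* had no read. The summed level of these markers was 116 to 159 CPM in si-NC and 76.4 to 117 CPM in si-*Snhg18*, and library 2 was the lowest of each group. *Cd53* was the largest part of this sum, at 109 ± 12.2 CPM in si-NC and 50.7 ± 0.359 CPM in si-*Snhg18* (log2 change -1.10, adjusted p = 0.00727). *S100a8* was a very small part, with 8 to 38 reads in a library. It was higher in si-*Snhg18* (0.380 ± 0.0525 against 1.55 ± 0.127 CPM, log2 change 2.02, adjusted p = 0.0154). In bulk RNA, fewer cells of a type and less RNA per cell cannot be told apart.

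Part of the chemokine system was expressed in these cells. In the whole table, which also holds noncoding genes, 14531 of 55487 genes passed the filter on low counts and 30472 had no read. Of the 68 members, 20 passed this filter, 17 ligands and 3 receptors. The 48 others had no read in any library in 29 cases and at most 1 to 3 reads in 14. The remaining 5 reached more than 3 reads in a library, namely *Ccl20* (at most 5 reads), *Ccl28* (15), *Cxcl9* (10), *Cx3cr1* (6) and *Cxcr6* (4). The entries with no read include those of *Ccl19*, *Ccl21a* and *Ccl21b*, which are annotated more than once. How reads that match several places were counted is not given in the sources used here. For these genes, having no read is therefore not evidence of no expression. The floor of detection was set at 3 reads, which equals 0.115 to 0.164 CPM and covers counting error only. By family, among the members taken by symbol, 8 of 31 CC ligand entries (25 symbols) and 4 of 5 ELR CXC ligands were tested. So were 4 of 7 other CXC ligands and 1 of 2 ligands of the CX3C and C families.

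*Ccl2*, *Ccl7* and *Cxcl12* were by far the most abundant ligands. Levels are compared between genes per kilobase of exon. In si-NC, *Ccl2*, which attracts monocytes, had 225 ± 79.4 CPM per kilobase (SD, n = 3), *Ccl7*, a close relative with similar targets, had 117 ± 52.3 and *Cxcl12*, the ligand of Cxcr4, had 112 ± 46.6. *Ccl7* and *Cxcl12* were closer to each other than their spread, and the range of the SD of *Ccl2* also overlapped with both. These 3 ligands made up 88.7% to 93.5% of the summed level of all ligands in every library. *Cxcl5* (15.3 ± 11.8) and the receptor *Ccr1* (13.9 ± 5.67) came next and were not apart beyond their spread. *Ccl8* followed at 9.78 ± 3.30, *Cxcl16* at 6.96 ± 1.82 and *Ccl25* at 5.86 ± 0.638, each within the spread of the one before it. The other 12 tested members lay between 0.299 for *Cxcl2* and 3.10 for *Cx3cl1*.

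**Figure D1:**
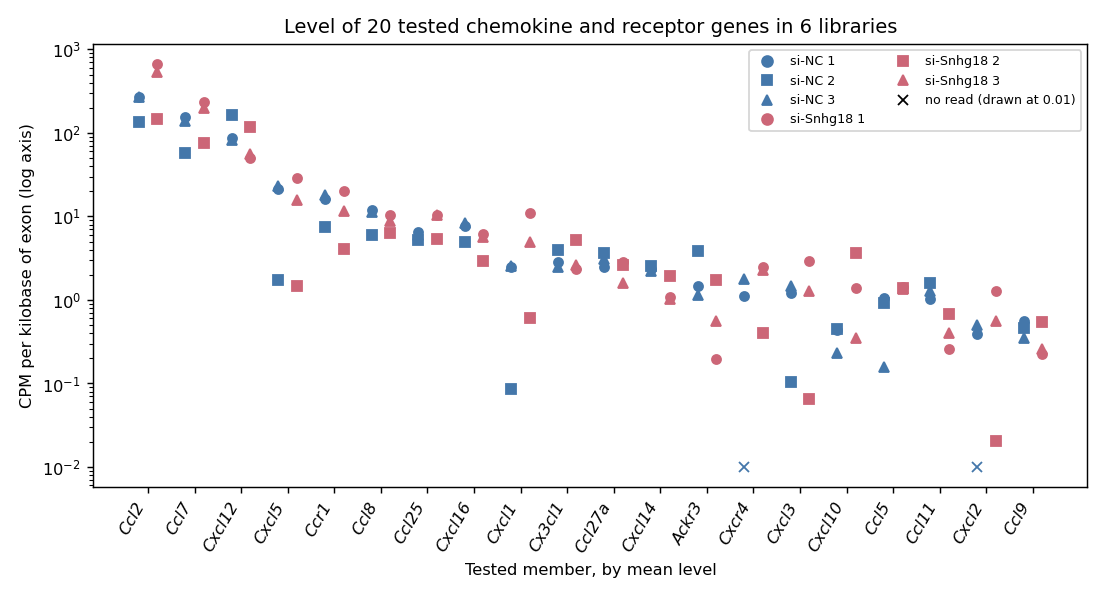
Level of each tested member in CPM per kilobase of exon on a log axis, with blue points for the 3 si-NC libraries, red points for the 3 si-*Snhg18* libraries and the shape giving the library number. *Ccl2*, *Ccl7* and *Cxcl12* lie highest, and the points of library 2 lie far below those of the other libraries for *Cxcl5*, *Cxcl1*, *Cxcl3* and *Cxcl2*. Crosses drawn at 0.01 mark libraries with no read.

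Few of the expressed ligands had an expressed receptor in the same cells. Of 16 tested ligands with a receptor listed for them by hand from general knowledge, 4 had one that passed the filter. *Ccl7*, *Ccl5* and *Ccl9* share Ccr1, and Cxcl12 binds Cxcr4 and Ackr3. For the other 12 ligands no such receptor was tested: *Ccr2*, *Ccr8* and *Cxcr3* had no read, *Cxcr2* had at most 2 reads, *Ccr3* and *Ccr10* at most 3, *Ccr9* at most 1, and *Cx3cr1* and *Cxcr6* at most 6 and 4.

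Without the block, none of the 20 tested members passed an adjusted p of 0.05 by edgeR's quasi-likelihood test, against 7.36% of all tested genes, of which 3.65% were higher and 3.71% lower in si-*Snhg18*. At an unadjusted p under 0.05 there were 3 members, *Ccl11*, *Cxcl10* and *Cxcl14*, or 15% against 24.9% of all genes. DESeq2 called 2 members, *Ccl11* (adjusted p = 0.0269) and *Cxcl10* (adjusted p = 0.0429), beside 2124 calls over all genes. The likelihood ratio test called *Ccl11* (adjusted p = 0.0138), beside 1340 calls over all genes. With limma-voom, 0 members were called, beside 1036 calls over all genes. Without si-*Snhg18* 2, the quasi-likelihood test called 5 members, *Ccl2*, *Ccl11*, *Ccl25*, *Cxcl14* and *Ackr3*, beside 3282 calls over all genes. It called 0 members without any other library. Over all genes the calls were then 158 without si-NC 2 and 319 without si-*Snhg18* 1. They were 0 without si-NC 1, si-NC 3 or si-*Snhg18* 3, where no member could be called.

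With the block, 9 of the 20 members passed, or 45%, against 27.2% of all tested genes. *Ccl2*, *Ccl7*, *Cxcl1* and *Cxcl10* rose in si-*Snhg18*, 4 members or 20% against 13.6% of all genes. *Cxcl12*, *Cxcl14*, *Cxcl16*, *Ccl11* and *Ackr3* fell, 5 members or 25% against 13.6%. All 3 pairs pointed the same way in 13 members, or 65% against 59.6% of all genes. The median log2 change with the block was -0.00 over the 20 members and 0.00 over all tested genes, and without the block it was 0.07 and 0.01. Without pair 3, only *Cxcl1* and *Cxcl12* of the 9 still passed and the block called 2 members. The calls over all genes fell as well, from 3954 to 651. The block called 11 members without pair 1, where *Ccr1* and *Cxcl5* were added, and 9 without pair 2, where *Ccl25* took the place of *Cxcl10*. Over all genes these fits called 4542 and 3504. DESeq2 with the block called 7 of the 9, without *Ccl2* (adjusted p = 0.0617) and *Cxcl14* (adjusted p = 0.0527). Without both libraries numbered 2 and with no block, 9 members also passed, *Ccl25* and 8 of the 9 named above, all except *Cxcl10*. Over all genes that fit called 4020.

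**Figure D2:**
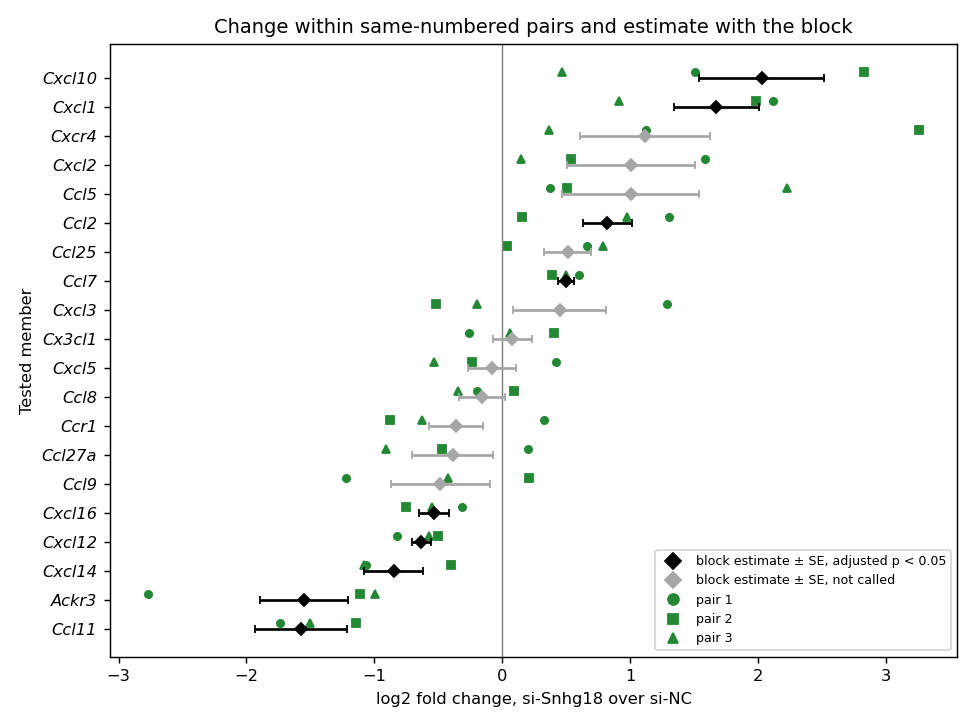
The log2 fold change of si-*Snhg18* over si-NC for each tested member, with green points for the 3 same-numbered pairs of libraries (on log2 CPM with a prior count of 2) and diamonds for the estimate with the block and its SE, black where the adjusted p was under 0.05. The 4 black diamonds to the right of 0 are *Cxcl10*, *Cxcl1*, *Ccl2* and *Ccl7*, and the 5 to the left are *Cxcl16*, *Cxcl12*, *Cxcl14*, *Ackr3* and *Ccl11*.

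Among the CC ligands, the monocyte attractants *Ccl2* and *Ccl7* were higher with si-*Snhg18* within every pair, while the eosinophil attractant *Ccl11*, their neighbour on the chromosome, was lower. *Ccl2* (ENSMUSG00000035385) stood at 219, 108 and 221 CPM in si-NC 1 to 3 and at 542, 121 and 436 CPM in si-*Snhg18* 1 to 3. The groups overlapped, since si-*Snhg18* 2 lay below si-NC 1 and si-NC 3, and the ratio within pairs was 2.47, 1.11 and 1.97. The log2 change was 1.00 (SE 0.55, adjusted p = 0.316) without the block and 0.82 (SE 0.19, adjusted p = 0.0184) with it, a 1.77-fold rise. Without pair 3 the adjusted p with the block was 0.150, and by DESeq2 with the block it was 0.0617. With no block the change was 0.61 without si-*Snhg18* 1 and 1.42 without si-*Snhg18* 2.

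*Ccl7* (ENSMUSG00000035373) had 123, 45.9 and 112 CPM in si-NC and 187, 60.2 and 159 CPM in si-*Snhg18*. Its ratio within pairs lay between 1.31 and 1.52, the narrowest range of the members that rose, although library 2 again made the groups overlap. With the block it rose 1.41-fold (log2 change 0.50, SE 0.06, adjusted p = 0.00209), and without it the log2 change was 0.53 (SE 0.50, adjusted p = 0.558). Without pair 3 the adjusted p with the block was 0.0534, and with no block the change was 0.20 without si-NC 2, 0.22 without si-*Snhg18* 1 and 0.88 without si-*Snhg18* 2.

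*Ccl11*, also called eotaxin, was a weakly expressed gene, with 26, 42 and 33 reads in si-NC and 7, 19 and 8 reads in si-*Snhg18*. In CPM these were 1.12, 1.72 and 1.40 against 0.277, 0.731 and 0.438. Every si-NC library lay above every si-*Snhg18* library. The log2 change was -1.53 (SE 0.42, adjusted p = 0.0814) without the block and -1.58 (SE 0.36, adjusted p = 0.0178) with it, which is 2.98-fold lower. Without pair 3 the adjusted p with the block was 0.117.

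The 5 other CC ligands did not pass either fit. *Ccl8*, an attractant that acts through Ccr8 in mice, had 3.06 to 6.13 CPM in si-NC and 3.27 to 5.34 CPM in si-*Snhg18*. *Ccl25*, the thymus and gut chemokine, had 5.51 to 6.86 CPM in si-NC and 10.9, 5.65 and 10.9 CPM in si-*Snhg18* (with the block, log2 change 0.51, SE 0.18, adjusted p = 0.0755). Without si-*Snhg18* 2 it passed with no block (log2 change 0.81, adjusted p = 0.0168). *Ccl25* overlaps *Elavl1* on the opposite strand, which reached 2061 reads against 276 for *Ccl25* and which itself was lower in si-*Snhg18*, and whether strand was used in counting is not given in the sources used here, so reads of these genes cannot be told apart. The same limit touches *Ccl27a*, the skin chemokine (1.47 to 2.16 against 0.932 to 1.70 CPM), which overlaps *Il11ra1*. *Cxcl10* and *Cxcl16* are touched as well, by *Art3* (at most 25 reads) and *Zmynd15* (at most 30 reads) on the opposite strands.

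*Ccl5*, an attractant of T cells and monocytes, was the only one of the 20 tested members whose si-*Snhg18* libraries all lay above its si-NC libraries. It had 13, 12 and 2 reads in si-NC and 19, 19 and 13 reads in si-*Snhg18*, and with the block its log2 change was 1.01 (SE 0.54, adjusted p = 0.207). *Ccl9*, a myeloid attractant that acts through Ccr1, had 1.06 to 1.68 CPM in si-NC and 0.673 to 1.61 CPM in si-*Snhg18*. In all, 3 of the 20 members had groups that did not overlap, *Ccl5* on the higher side and *Ccl11* and *Cxcl14* on the lower side, or 15% against 30.9% of all tested genes.

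**Figure D3:**
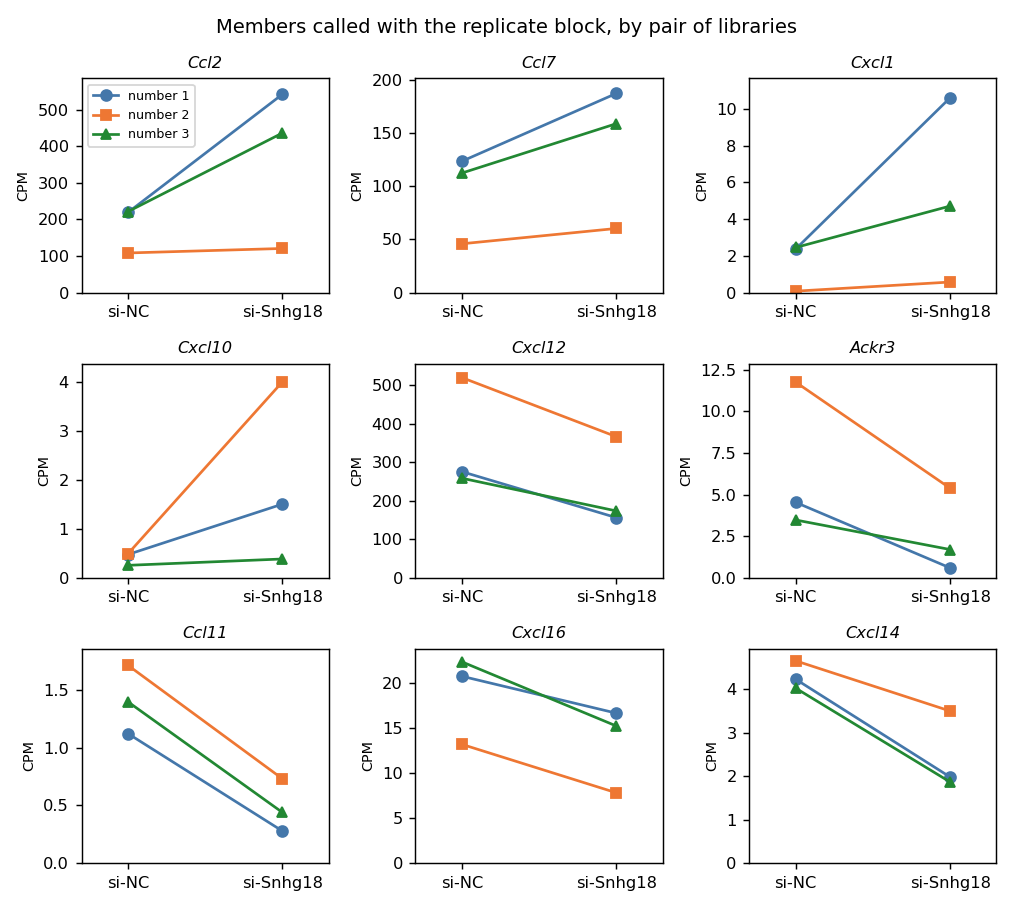
CPM of the 9 members called with the block, on axes that start at 0, with a line joining the si-NC and si-*Snhg18* libraries of the same number. The lines of all 3 pairs slope upward for *Ccl2*, *Ccl7*, *Cxcl1* and *Cxcl10* and downward for the other 5, and library 2 sits lowest for *Ccl2*, *Ccl7*, *Cxcl1* and *Cxcl16* and highest for *Cxcl12*, *Ackr3*, *Ccl11*, *Cxcl14* and *Cxcl10*.

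The ELR CXC ligands attract neutrophils through Cxcr2, and of the 4 tested only *Cxcl1* passed with the block. *Cxcl1* had 55, 2 and 58 reads in si-NC and 268, 15 and 86 reads in si-*Snhg18*, or 2.37, 0.0817 and 2.46 against 10.6, 0.577 and 4.71 CPM. Within pairs it was 4.47, 7.06 and 1.92 times higher, and the ratio of pair 2 rests on 2 reads in si-NC 2. With the block it rose 3.19-fold (log2 change 1.67, SE 0.33, adjusted p = 0.0106), and the adjusted p was 0.00891 to 0.0392 when a pair was left out. Without the block the log2 change was 1.70 with an SE of 1.18 (adjusted p = 0.419), and it ran from 0.67 without si-*Snhg18* 1 to 2.24 without si-*Snhg18* 2.

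The other 3 did not pass either fit. *Cxcl5* was the most abundant of them, with 39.7, 3.27 and 42.8 CPM in si-NC and 53.2, 2.77 and 29.6 CPM in si-*Snhg18*, and its log2 change with the block was -0.08 (SE 0.18, adjusted p = 0.782), or -0.46 (adjusted p = 0.00972) without pair 1. *Cxcl3* had 4.19, 0.368 and 5.17 CPM against 10.4, 0.231 and 4.49 CPM, higher in pair 1 and lower in pairs 2 and 3 (with the block, log2 change 0.45, SE 0.36, adjusted p = 0.397). *Cxcl2* had 17, 0 and 22 reads against 60, 1 and 19 reads (with the block, log2 change 1.01, SE 0.50, adjusted p = 0.177). The differences between these genes and *Cxcl1* were not tested, and since *Cxcl1*, *Cxcl2* and *Cxcl3* are close relatives, the sharing of reads between them is uncertain.

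Of the other CXC ligands, *Cxcl12* fell in every pair and was the best measured of the members that fell. It had 275, 519 and 258 CPM in si-NC 1 to 3 and 156, 366 and 173 CPM in si-*Snhg18* 1 to 3. Library 2 was the highest in each group, so the groups overlapped, but the ratio within pairs was 0.567, 0.705 and 0.672. The log2 change was -0.60 (SE 0.41, adjusted p = 0.415) without the block and -0.63 (SE 0.07, adjusted p = 0.00159) with it, which is 1.55-fold lower. The adjusted p with the block was 3.84e-08 to 0.0412 when a pair was left out. With no block the change was -0.20 without si-NC 2, -0.38 without si-*Snhg18* 1 and -1.09 without si-*Snhg18* 2.

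*Ccl2* and *Cxcl12* moved in opposite directions with the block, and the balance between the most abundant ligands differed between libraries. Per kilobase, *Ccl2* was 3.06, 0.804 and 3.30 times as abundant as *Cxcl12* in si-NC 1 to 3 and 13.4, 1.27 and 9.68 times in si-*Snhg18* 1 to 3. *Cxcl12* made up 14.8% to 42.7% of the summed ligand level in si-NC and 4.84% to 31.3% in si-*Snhg18*. In every pair the ratio was higher with si-*Snhg18*, and library 2 had the lowest ratio of each group.

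*Cxcl10*, the interferon-induced ligand of Cxcr3, had the largest fold rise on very few reads, 11, 12 and 6 in si-NC and 38, 104 and 7 in si-*Snhg18*. In CPM these were 0.475, 0.490 and 0.254 against 1.50, 4.00 and 0.384. The libraries of si-*Snhg18* differed widely, and si-*Snhg18* 3 lay among the si-NC libraries. The log2 change was 2.27 (SE 0.82, adjusted p = 0.151) without the block and 2.03 (SE 0.49, adjusted p = 0.0216) with it. Without pair 2 the log2 change with the block was 1.26 (adjusted p = 0.156), and without pair 3 the adjusted p was 0.0527. With no block the change ran from 1.24 without si-*Snhg18* 2 to 2.74 without si-*Snhg18* 3, and *Art3*, on the opposite strand, held up to 25 reads. *Cxcl9*, its neighbour and a ligand of the same receptor, had 0, 1 and 1 reads in si-NC and 2, 10 and 5 reads in si-*Snhg18* and was not tested.

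*Cxcl14*, a ligand of epithelia and stroma, had 4.23, 4.66 and 4.02 CPM in si-NC and 1.98, 3.50 and 1.86 CPM in si-*Snhg18*. The groups did not overlap, and the log2 change was -0.81 (SE 0.29, adjusted p = 0.147) without the block and -0.85 (SE 0.23, adjusted p = 0.0327) with it. *Cxcl16*, a membrane-bound ligand that can be shed, had 20.8, 13.2 and 22.4 CPM in si-NC and 16.7, 7.81 and 15.2 CPM in si-*Snhg18*, where si-*Snhg18* 1 and 3 lay above si-NC 2. With the block it fell by 0.53 on the log2 scale (SE 0.12, adjusted p = 0.0160), and without it the change was -0.51 (SE 0.33, adjusted p = 0.386). Without pair 3 the adjusted p with the block was 0.203 for *Cxcl14* and 0.147 for *Cxcl16*, and by DESeq2 with the block it was 0.0527 for *Cxcl14*. With no block, the change of *Cxcl16* ran from -0.71 without si-*Snhg18* 1 to -0.24 without si-*Snhg18* 2.

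*Cx3cl1*, the other membrane-bound ligand, had 8.26 to 13.1 CPM in si-NC and 7.87 to 17.3 CPM in si-*Snhg18*. Its log2 change with the block was 0.08 (SE 0.15, adjusted p = 0.737), and its direction differed between pairs. *Adam17*, a protease known to shed both membrane-bound ligands, was higher in si-*Snhg18* without the block (91.5 ± 0.741 against 122 ± 11.9 CPM, log2 change 0.42, adjusted p = 0.0377). The related protease *Adam10*, named after its value was seen, did not pass (174 ± 8.21 against 187 ± 13.7 CPM, log2 change 0.11, adjusted p = 0.439). Shedding was not measured.

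Of the 3 tested receptors, the scavenging receptor *Ackr3* fell with the block, and the signalling receptors *Ccr1* and *Cxcr4* did not pass either fit. *Ackr3*, which binds and removes Cxcl12, had 4.53, 11.8 and 3.47 CPM in si-NC and 0.594, 5.38 and 1.70 CPM in si-*Snhg18*. Its ratio within pairs was 0.131, 0.458 and 0.489, and si-*Snhg18* 2 lay above si-NC 1 and 3. With the block it was 2.93-fold lower (log2 change -1.55, SE 0.34, adjusted p = 0.0158), without the block the log2 change was -1.35 (SE 0.81, adjusted p = 0.352), and without pair 3 the adjusted p with the block was 0.0723. With no block the change ran from -2.58 without si-*Snhg18* 2 to -0.64 without si-NC 2, and it was -0.88 without si-*Snhg18* 1.

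*Cxcr4*, the signalling receptor for Cxcl12, had 46, 0 and 76 reads in si-NC and 112, 19 and 76 reads in si-*Snhg18*. In CPM this was 1.99, 0 and 3.22 against 4.43, 0.731 and 4.16. It was higher in every pair, 2.23-fold in pair 1, 1.29-fold in pair 3 and at least 5.96-fold in pair 2, where the 0 reads of si-NC 2 were set to 3. The log2 change with the block was 1.11 (SE 0.51, adjusted p = 0.148). *Ccr1*, a receptor for *Ccl7*, *Ccl5* and *Ccl9* proteins on myeloid cells, was the best expressed receptor, with 45.4, 21.1 and 51.4 CPM in si-NC and 57.1, 11.4 and 33.3 CPM in si-*Snhg18*. It was higher in pair 1 and lower in pairs 2 and 3 (with the block, log2 change -0.36, SE 0.21, adjusted p = 0.242), and without pair 1 it passed with the block at -0.75 (adjusted p = 2.23e-06).

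Library 2 of each group differed from the other libraries in many of these genes. In 8 of the 20 members, or 40%, library 2 was lower than libraries 1 and 3 by at least 1 log2 unit in both groups, against 2.32% of all tested genes. They were *Ccl2*, *Ccl7*, *Ccr1*, *Cxcr4* and all 4 tested ELR CXC ligands. As a share of the mean of libraries 1 and 3, library 2 held 7.92% of *Cxcl5* in si-NC and 6.68% in si-*Snhg18*, 3.38% and 7.53% of *Cxcl1*, and 7.86% and 3.10% of *Cxcl3*. For *Ccl2* the shares were 49.2% and 24.7%, and for *Ccl7* 38.9% and 34.9%. *Ackr3* was the only member higher by that much in both groups, 5% against 1.73% of all genes, at 294% and 470%, and *Cxcl12* stood at 195% and 222%.

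The summed markers of several cell types also differed between library 2 and the others. *Cd14* is found on monocytes and also on some stromal cells. It had 31.2, 11.1 and 31.3 CPM in si-NC and 49.2, 15.5 and 46.1 CPM in si-*Snhg18*. With the block it rose by 0.57 on the log2 scale (adjusted p = 0.00369). Of the 6 tested leukocyte markers, 2 were higher and 1, *Cd53*, lower with the block, against 13.6% of all genes in each direction. *Lyz2*, named after its values were seen, was highest in library 2 of each group. It had 1.42, 1.88 and 1.48 CPM in si-NC and 2.33, 2.88 and 1.48 CPM in si-*Snhg18*. The epithelial and mesothelial markers summed to 20.2, 43.0 and 18.5 CPM in si-NC and 6.81, 17.1 and 8.49 CPM in si-*Snhg18*, the smooth muscle markers to 1783, 1911 and 1762 against 1216, 1870 and 1275 CPM, the fibroblast markers to 542, 515 and 584 against 507, 376 and 479 CPM, and the endothelial markers to 13.2 to 14.6 against 13.8 to 16.3 CPM. With the block, 4 of 9 smooth muscle markers, 1 of 5 tested endothelial and 1 of 6 fibroblast markers were lower and none higher, against 13.6% of all genes lower. The epithelial sum came mostly from *Krt18* and *Msln*, the 2 tested of 7, both lower with the block, while *Epcam*, *Cdh1* and *Wt1* had at most 3, 1 and 1 reads. The fibroblast sum came mostly from *Pdgfra* (477 ± 43.9 against 376 ± 62.3 CPM), the only fibroblast marker called with the block. The part of all these markers in the values of the chemokine genes was not tested.

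**Figure D4:**
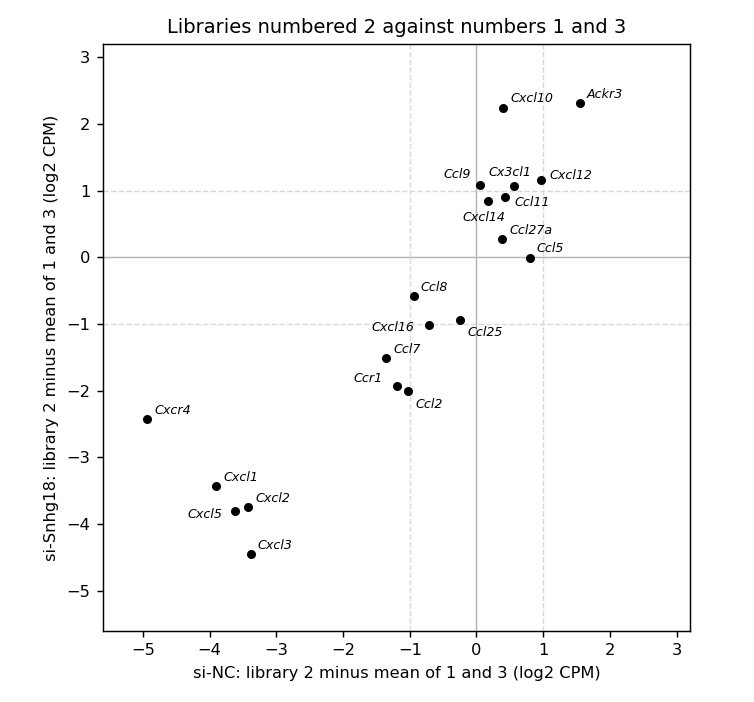
For each tested member, library 2 minus the mean of libraries 1 and 3 in log2 CPM (prior count of 2), in si-NC on the horizontal axis and in si-*Snhg18* on the vertical axis, with dashed lines at 1 log2 unit. The 8 members at the lower left, *Cxcr4*, *Cxcl1*, *Cxcl5*, *Cxcl2*, *Cxcl3*, *Ccr1*, *Ccl2* and *Ccl7*, were low in library 2 of both groups, and *Ackr3* was high in both.

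The genes lie in clusters, and neighbours differed in direction. On chromosome 11, from 82035571 to 82305690 in GRCm38, lie *Ccl2*, *Ccl7*, *Ccl11*, *Ccl12*, *Ccl8* and *Ccl1*. With the block, *Ccl2* and *Ccl7* rose and *Ccl11* fell, *Ccl8* did not pass (log2 change -0.16, adjusted p = 0.552), and *Ccl12* and *Ccl1* had no read. Of the members taken by symbol, the ELR CXC cluster on chromosome 5, from 90759360 to 90905938, holds *Cxcl5*, *Cxcl3*, *Cxcl15*, *Cxcl1* and *Cxcl2*. All of them but *Cxcl15*, which had no read, were far lower in library 2. Of the 8 receptors on chromosome 9, from 123678439 to 124147699, *Ccr1* alone was tested, and in the second CC cluster on chromosome 11, from 83525778 to 83664683, *Ccl5* and *Ccl9* were 2 of 5.

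**Figure D5:**
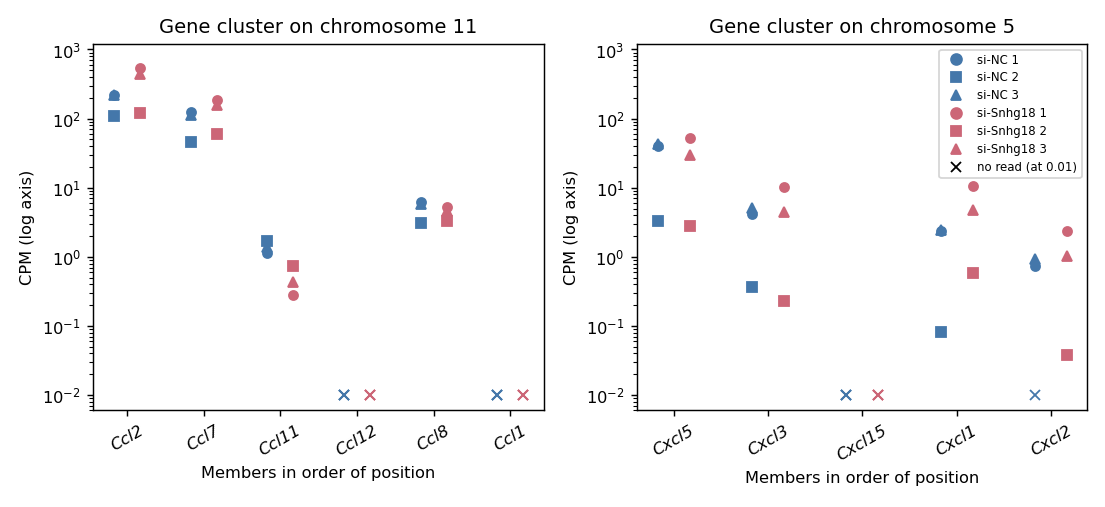
CPM on a log axis for the members of the cluster on chromosome 11 that holds *Ccl2* and the cluster on chromosome 5 that holds *Cxcl1*, in order of position, with blue si-NC points, red si-*Snhg18* points, shapes for the library numbers and crosses at 0.01 for no read. Levels in the left panel run from no read in *Ccl12* and *Ccl1* to 542 CPM in *Ccl2*. In the right panel the points of library 2 are the lowest of each expressed gene, as squares or, for si-NC 2 of *Cxcl2*, as a cross.

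The genes that act before and after the chemokines were given by list. Their counts stand beside 3.65% higher and 3.71% lower of all tested genes without the block, and 13.6% in each direction with it. Of 27 inducing cytokines and their receptors and factors, 21 were tested, 4 were higher and 0 lower without the block, and 7 were higher and 4 lower with it. *Ifngr2*, a chain of the interferon gamma receptor, was higher by 0.52 on the log2 scale (adjusted p = 0.0202), *Il4ra*, the receptor chain for interleukin 4, by 0.55 (adjusted p = 0.0208) and *Il17ra*, for interleukin 17, by 0.57 (adjusted p = 0.0250). The fourth was *Tnfrsf1b* (0.82, adjusted p = 0.0278). The 4 lower with the block were *Tnfrsf1a*, the other receptor for tumour necrosis factor (-0.64, adjusted p = 0.00143), *Il1r1* (-0.36, adjusted p = 0.0206), *Ifnar1* (-0.24, adjusted p = 0.0214) and *Il13ra1* (-0.44, adjusted p = 0.0147). *Il1b*, *Tnf* and *Ifng* had no read. *Il6* was tested and passed neither fit. It had 3.84, 9.84 and 2.25 CPM in si-NC and 0.317, 9.69 and 1.10 CPM in si-*Snhg18*. These cytokines, *Tnfrsf1b* and the 4 lower genes were named after their values were seen.

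None of the 15 NF-kappaB pathway genes, all tested, passed without the block, and with it 3 were lower, or 3 of 15 against 13.6% of all genes, *Relb* (log2 change -0.48, adjusted p = 0.0245), *Bcl3* (-1.02, adjusted p = 0.00706) and *Chuk* (-0.33, adjusted p = 0.00879). Of the genes that carry the receptor signal, G protein subunits, receptor kinases and arrestins among them, 19 of 24 were tested. The receptor kinase *Grk6* was higher without the block (0.35, adjusted p = 0.0386), and 5 of the 19 were higher and 0 lower with it, against 13.6% of all genes in each direction.

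Of the 17 genes that hold, cut or clear chemokines, 11 were tested. *Sdc3* (0.56, adjusted p = 0.0190) and *Adam17* were higher and *Sdc4* (-0.72, adjusted p = 0.0126) was lower without the block, and 2 were higher and 3 lower with it, 5 of 11 against 27.2% of all genes. *Sdc3* and *Sdc4* encode cell surface proteoglycans. All 10 genes that control the decay of short-lived mRNAs were tested. *Elavl1* (-0.35, adjusted p = 0.0253), which stabilises such mRNAs, and *Zfp36l2* (-0.38, adjusted p = 0.0458), which speeds their decay, were lower without the block, 2 of 10 against 3.71% of all genes, and 3 were higher and 2 lower with it, 5 of 10 against 27.2%.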

How the data were processed

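RNA sequencing of 6 libraries was analysed, 3 from mPASMCs with si-NC and 3 with si-*Snhg18*, grouped and numbered by their labels. Libraries were made by the authors with a stranded mRNA kit. The deposited values are whole-number counts of reads per gene, without normalization, and the file gives positions on GRCm38.p6. The submitters' processing notes name HISAT2 and mm10; the counting program and strand setting are not given in the sources used here.

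Genes were kept by filterByExpr (minimum count 10), scaled by TMM and compared with glmQLFit and glmQLFTest in edgeR 4.0.16 (R 4.3.3), with Benjamini-Hochberg adjustment over 14531 genes. CPM uses TMM-scaled totals, and log2 CPM carries a prior count of 2. The common coefficient of biological variation was 0.218. For 3 libraries against 3, the smallest two-sided p of an exact permutation test is 0.1.

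The pairing was checked by correlating deviations from the group means over the 14531 genes. Same-numbered libraries gave r of 0.410, 0.742 and 0.359 for numbers 1, 2 and 3, and si-NC 3 with si-*Snhg18* 1 gave 0.497. Only the match of the libraries numbered 2 was clear, and the deviations within a group depend on each other. The replicate number entered a second fit as a block, and whether numbers 1 and 3 are truly paired was not settled.

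Alternatives were DESeq2 1.42.0, limma-voom (limma 3.58.1), the likelihood ratio test, RLE factors, library totals, minimum counts of 5 and 20, no filter, the block and leaving out libraries. Fits without both libraries numbered 2, block fits without a pair and block fits with other scalings were chosen after seeing the data. Tests were tried on simulated data.

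The named genes are *Snhg18*, every tested member, untested members with more than 3 reads in a library, and up to 3 called genes of each other list, and exceptions are marked in the text or were called with the block. Members and lists were chosen with earlier results of these data known. Promoters are from RefSeq (GRCm38.p6), and kappaB was searched by its consensus.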

Additional observations from a re-analysis of the deposited data

How the results depend on the processing

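The count of called members rose from 0 to 9 with the replicate block (4 higher, 5 lower), to 9 without both libraries numbered 2 (4 higher, 5 lower), to 9 with the block and RLE factors or library totals (4 higher, 5 lower each), to 7 by DESeq2 with the block (3 higher, 4 lower), to 2 by DESeq2 (1 higher, 1 lower) and to 1 by the likelihood ratio test (1 lower). Leaving out a library gave 0 to 5 members (0 to 2 higher, 0 to 3 lower), with 5 only without si-*Snhg18* 2. Leaving out a pair under the block gave 2 to 11 (1 to 4 higher, 1 to 7 lower), with 2 without pair 3. Of all genes, 1069 were called without the block, 3954 with it, 2124 by DESeq2, 3166 by DESeq2 with the block, 4020 without both libraries numbered 2, 3958 and 3892 with the block and RLE factors or library totals, 0 to 3282 without a library and 4542, 3504 and 651 with the block and without pair 1, 2 or 3. The filter left 20 members tested, and 39 were tested without it. The *Snhg18* change ran from -1.14 to -1.06 without a library.

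The direction of 5 members that passed no fit with all 6 libraries reversed. *Cxcl5* was 0.01 (0.00591) with RLE factors, 0.01 (0.00603) by DESeq2, 0.00 (0.00121) at a minimum count of 20 and 0.01 (0.00924) without both libraries numbered 2, and ran from -0.84 to 0.54 without a library and from -0.46 to 0.19 with the block and without a pair. *Cx3cl1* was -0.11 without both libraries numbered 2 and ran from -0.32 to 0.35 and from -0.11 to 0.25. *Cxcl3* ran from -0.49 to 1.21 and from -0.30 to 0.89, *Cxcl2* from -0.12 to 1.66 and *Ccr1* from -0.82 to 0.20 without a library. The cause of these changes was not tested. Across the alternatives, 349 member values kept their direction and side of the threshold, 73 passed where they had not and 16 reversed. Other scalings moved the median of all genes by less than 0.02. Depth limits *Ccl5*, *Ccl11*, *Cxcl1*, *Cxcl2*, *Cxcl3*, *Cxcl10* and *Cxcr4*, each with a library of 7 reads or fewer.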
